A study of Mus musculus with 15 samples.

Results

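The homeostatic and lymphoid chemokine system was represented by 10 genes: the chemokine ligands Ccl19, Ccl21a, Cxcl13, Cxcl12, Cxcl16 and Cx3cl1 and the receptors Ccr7, Cxcr5, Cxcr4 and Cxcr6. They were chosen by name, and all 10 were found on the array, with 14 of its 41174 probes and among 32301 genes. There were 15 single-colour arrays, in 5 groups of 3. Heart allografts were taken at postoperative day (POD) 5 from C57BL/10 (B10, H-2b) hearts grafted heterotopically into the abdomen of CBA (H-2k) recipients. Liver allografts were taken at POD5 and POD8 from B10.BR (BR, H-2k) livers grafted orthotopically into B10.D2 (D2, H-2d) recipients. Heart controls and liver controls made up the other groups. Their strain is not given in the sources used here, and the sources describe them both as normal tissue and as isografts. All mice were male and their age is not given in the sources used here. The organ and the strain pair changed together, so that their parts in a difference between heart and liver cannot be told apart. The sources give 3 samples for each group, the controls as separate tissues, but do not say that each sample came from an animal of its own, so P-values measure only the spread between these samples.

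Chemokines guide leukocytes by binding to G protein-coupled receptors on their surface. Homeostatic chemokines are made constantly in lymphoid organs and barrier tissues, where CCL19 and CCL21 draw CCR7-bearing naive T cells and mature dendritic cells into T cell zones, and CXCL13 draws CXCR5-bearing B cells and follicular helper T cells into follicles. CXCL12 retains CXCR4-bearing cells, among them blood progenitors, in their niches. CXCL16 and CX3CL1 are made as membrane-bound molecules that also hold cells on the surface that makes them. Their receptors are CXCR6, found on activated and tissue-resident T cells and NKT cells, and CX3CR1, found on monocytes and cytotoxic lymphocytes. Liver sinusoids are known for CXCR6-bearing lymphocytes, and lymphoid chemokines can be induced in chronically inflamed grafts.

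Values are log2 of the scanner's processed signal after quantile normalization over the 15 arrays. A gene with several probes is described by its brightest, and a difference was called at an adjusted P-value below 0.05 by limma with Benjamini-Hochberg adjustment over all probes. Signal over background limits the precision. The share of probes well above background was 52.5% to 70.5% of each array, and the raw 75th percentile of signal ran from 92.1 to 1247. Liver control replicate 1 had the lowest of both, and liver controls 1 and 3 had the lowest correlation between arrays of a group (0.956, where the highest was 0.994). The liver values of the 10 genes by their brightest probe, the list counts and the calls of the named list genes are therefore also given without that array. Hepatocyte markers Alb, Apoa1 and Ttr were well above background on every liver array and on no heart array, and the cardiomyocyte marker Myh6 was well above background on every heart array and on no liver array. Of the full lists, 0 to 1 of 4 hepatocyte markers were well above background on heart arrays. On liver arrays 2 to 3 of 5 cardiomyocyte markers were. Heart allografts and heart controls lay on different slides, scanned separately, so in the heart the parts of slide and of group cannot be told apart. In the liver, 1 slide held 2 controls and 2 POD8 allografts, and values within it are given beside the POD8 results. No slide held liver controls together with liver POD5 allografts.

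In the heart at POD5, 3 of the 10 genes were higher in allografts (Ccr7, Cxcl16 and Cx3cl1), where 15.5% of the 32171 genes tested were called higher, and 2 were lower (Ccl21a and Cxcl12), where 15.3% were called lower. In the liver at POD5, Cxcr6 was the 1 gene called higher, beside 2.51% of all genes, and 0 were called lower, beside 0.808%. In the liver at POD8, Ccr7, Cxcr4 and Cxcr6 were called higher, beside 3.56% of all genes, and 0 were called lower, beside 1.55%. At an unadjusted P-value below 0.05 the counts were 7, 8 and 7 of 10. Over all probes they were 18169 of 41025, 8468 of 41155 and 9116 of 41157. The 10 genes had a median difference of 0.71 in heart allografts, 1.62 in liver POD5 allografts and 1.59 in liver POD8 allografts, beside medians over all genes of 0.03, -0.08 and -0.11. All 3 heart allografts lay above all 3 controls for 5 of the 10 genes (30% of all genes) and below them for 2 (24%). The same held for 6 (12.2%) and 1 (19.7%) in the liver at POD5, and for 5 (11.9%) and 2 (19.8%) at POD8. Both liver comparisons share the same 3 controls. For a single gene, 3 arrays against 3 cannot give a 2-sided exact permutation P-value below 0.1.

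**Figure D1:**
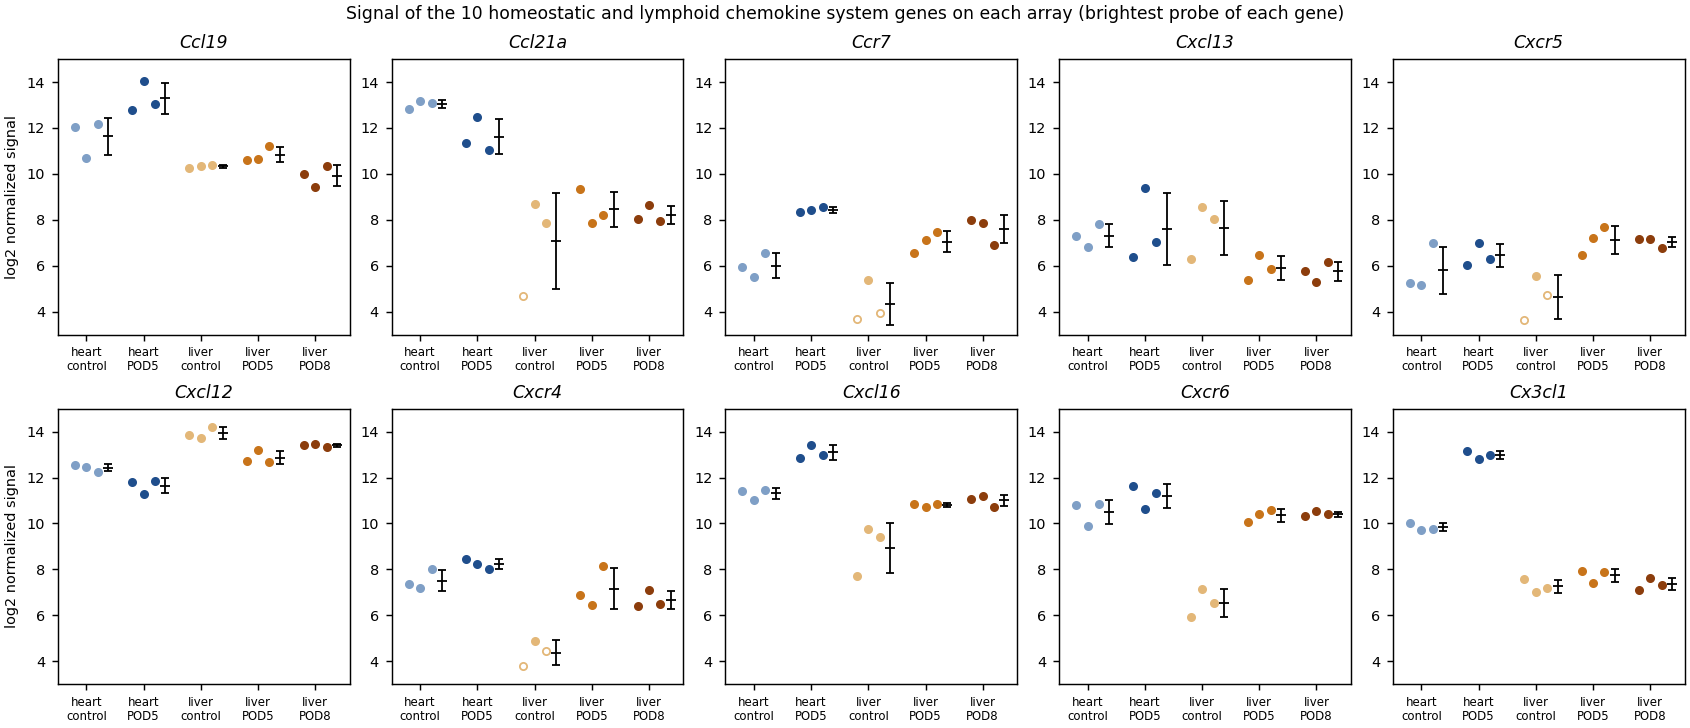
Log2 normalized signal (y axis) of the brightest probe of each of the 10 genes in the 5 groups (x axis). Each point is 1 array (filled where well above background, open where not), and the bar beside it is the mean ± SD of 3 arrays. Cx3cl1 lay at 12.82 to 13.15 in heart allografts and at 10.03 or below elsewhere, while Cxcr6 in liver rose from at most 7.16 in controls to at least 10.04 in allografts.

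**Figure D2:**
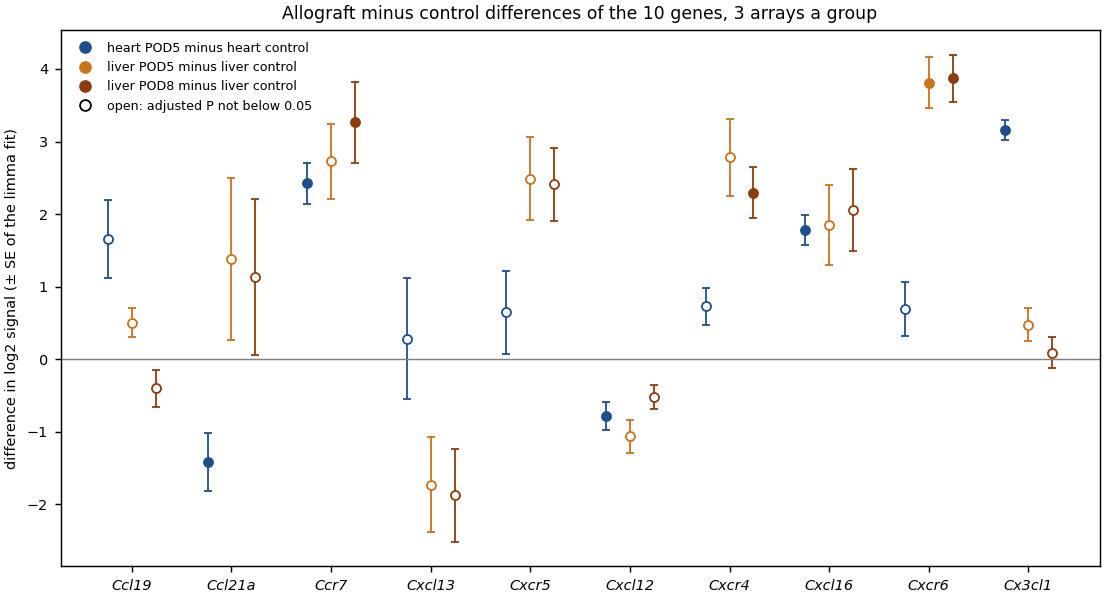
Difference in log2 signal between allografts and controls (y axis, ± SE of the limma fit, 3 arrays a group) for each gene (x axis) in the heart at POD5 and the liver at POD5 and POD8. Filled points had an adjusted P-value below 0.05. Cxcr6 had the largest liver differences of the 10 genes (3.81 and 3.87) and Cx3cl1 the largest heart difference (3.16).

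Ccr7, the receptor that leads naive T cells and mature dendritic cells to lymphoid tissue, was higher in heart allografts and in liver allografts at POD8. Its signal was 5.95, 5.51 and 6.56 in heart controls and 8.32, 8.41 and 8.57 in heart allografts. The groups did not overlap, and the difference of 2.43 ± 0.28 (SE, n = 3 and 3, 5.38-fold) had an adjusted P-value of 0.0036. In liver controls it was 3.66, 5.36 and 3.95, with 1 of 3 arrays well above background. In liver allografts it was 6.56, 7.14 and 7.46 at POD5 and 7.997, 7.88 and 6.89 at POD8. All 6 liver allografts lay above all 3 controls. The POD8 difference was 3.26 ± 0.55 (9.60-fold, adjusted P = 0.041), and the POD5 difference of 2.73 ± 0.52 (6.62-fold) was not called (adjusted P = 0.061). Without liver control replicate 1 the POD8 difference was 2.93 (adjusted P = 0.067) and the POD5 difference was 2.40 (adjusted P = 0.12). Within the slide that held both groups the POD8 difference was 3.42 (2 against 2, adjusted P = 0.14). The POD8 call was also lost without liver control replicate 3 and without any 1 of the POD8 allografts (adjusted P = 0.078 to 0.17).

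The ligands of CCR7 read in opposite directions in the heart. Ccl19, which mature dendritic cells and stromal cells make, read 12.05, 10.69 and 12.16 in heart controls and 12.77, 14.06 and 13.03 in heart allografts. The groups did not overlap, but controls spread widely, and the difference of 1.66 ± 0.54 (3.15-fold) was not called (adjusted P = 0.070). Its other probe gave a fold of 3.27 there. Ccl21a, made by lymphatic endothelium and T zone stroma, read 12.83, 13.17 and 13.11 in heart controls and 11.36, 12.48 and 11.03 in heart allografts. All 3 allografts were lower, and Ccl21a fell by 1.41 ± 0.40 on the log2 scale (adjusted P = 0.047). Ccl21a has near-identical copies in the mouse genome, and which of them its single probe reads was not tested. The Ccl21a call was lost in 12 of 18 alternatives, among them without heart allograft replicate 1 or 3 and without any 1 of the 3 heart controls (adjusted P = 0.10 to 0.13).

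In the liver neither ligand was called. Ccl19 was 10.26, 10.34 and 10.37 in controls, 10.61, 10.67 and 11.20 at POD5 and 10.01, 9.42 and 10.35 at POD8. POD5 allografts all lay above controls, by 0.50 ± 0.20 (adjusted P = 0.24), and POD8 allografts overlapped them at -0.40. With liver control replicate 1 left out these were 0.47 and -0.43, and within the shared slide the POD8 value was -0.59. The other Ccl19 probe also lay all above controls at POD5, by 0.97 (adjusted P = 0.073), and overlapped them at POD8, at 0.03. Ccl21a was 4.68, 8.68 and 7.86 in liver controls, 9.32, 7.86 and 8.19 at POD5 and 8.03, 8.65 and 7.94 at POD8. The low value in liver control replicate 1, which was not well above background, set most of the mean difference: at POD5 it was 1.38 with that array and 0.19 without it, and at POD8 1.13 and -0.0623. Within the shared slide, which held that array, the POD8 difference was 1.66.

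Ccl19 and Ccl21a lie close together on the same strand of chromosome 4, and the 250 bases before their annotated starts are shown since they serve the same receptor and differed in sign in the heart. Sequences are from RefSeq (GRCm38.p6), 5′ to 3′ in the direction of the gene, at chr4:42756366-42756615 on the minus strand and chr4:42773992-42774241 on the minus strand. Capitals mark an interferon-stimulated response element match (GAAANNGAAA).
Ccl19: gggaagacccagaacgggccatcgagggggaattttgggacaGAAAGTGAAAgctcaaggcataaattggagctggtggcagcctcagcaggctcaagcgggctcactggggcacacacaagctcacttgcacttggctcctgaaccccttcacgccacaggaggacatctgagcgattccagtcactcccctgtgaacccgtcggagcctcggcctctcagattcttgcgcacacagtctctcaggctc
Ccl21a: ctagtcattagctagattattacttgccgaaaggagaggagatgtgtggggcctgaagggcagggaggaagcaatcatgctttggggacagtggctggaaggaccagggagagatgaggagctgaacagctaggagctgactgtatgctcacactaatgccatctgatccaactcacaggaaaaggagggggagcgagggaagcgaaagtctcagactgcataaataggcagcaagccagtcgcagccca
The match in Ccl19 runs from 208 to 199 bases before the start, and the Ccl21a window has none. That motif is in 2.98% of 32851 promoter windows of this length on either strand.

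Cxcl13 and its receptor Cxcr5, the follicle pair, were not called in any comparison. Cxcl13 was 7.30, 6.80 and 7.80 in heart controls and 6.38, 9.37 and 7.02 in heart allografts. The high value of heart allograft replicate 2 set the sign of the mean difference, which was 0.29 ± 0.83 with it and -0.60 without it. In liver it was 6.30, 8.56 and 8.01 in controls, 5.396, 6.45 and 5.85 at POD5 and 5.78, 5.30 and 6.17 at POD8. All 3 POD8 allografts lay below the controls, at a difference of -1.88 (adjusted P = 0.17), and POD5 allografts overlapped them at -1.73 (adjusted P = 0.22). Without liver control replicate 1, Cxcl13 at POD8 was at -2.54 (adjusted P = 0.029) and at POD5 at -2.39 (adjusted P = 0.069). Within the shared slide the POD8 difference was -1.89 (2 against 2).

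Cxcr5 was 5.27, 5.15 and 6.98 in heart controls and 6.05, 7.01 and 6.29 in heart allografts, which overlapped (0.65, adjusted P = 0.44). In liver controls it was 3.64, 5.56 and 4.70, with 1 of 3 arrays well above background. Liver allografts read 6.47, 7.22 and 7.68 at POD5 and 7.18, 7.17 and 6.79 at POD8. All 6 lay above all controls, but the differences of 2.49 (5.61-fold) and 2.41 (5.33-fold) had adjusted P-values of 0.092 and 0.064. Without liver control replicate 1 they were 1.99 (adjusted P = 0.13) and 1.92 (adjusted P = 0.046), and within the shared slide the POD8 difference was 2.58. B cells carry CXCR5 most widely. Of 8 B cell markers, 1 was called higher in heart allografts, 0 in liver POD5 allografts and 1 in liver POD8 allografts. Over all genes the shares were 15.5%, 2.51% and 3.56%. The liver marker counts were the same without liver control replicate 1. The heart call was Blk, a B cell kinase that was not well above background on any heart array, and the liver call was Cd22, a B cell surface inhibitor that was well above background on all 6 arrays.

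Cxcl12, a stromal ligand, was lower in heart allografts by its brighter probe, while its receptor Cxcr4 was higher in liver allografts at POD8. Cxcl12 was 12.55, 12.48 and 12.26 in heart controls and 11.80, 11.29 and 11.87 in heart allografts. The groups did not overlap and Cxcl12 fell by 0.78 ± 0.19 (adjusted P = 0.031), a call lost in 9 of 18 alternatives. Leaving out any 1 heart control ended it (adjusted P = 0.066 to 0.10), as did leaving out heart allograft replicate 1 (adjusted P = 0.055). In liver it was 13.85, 13.72 and 14.22 in controls, 12.71, 13.22 and 12.68 at POD5 and 13.44, 13.46 and 13.33 at POD8. Both sets of liver allografts lay below the controls, at -1.06 ± 0.23 (adjusted P = 0.077) and -0.52 (adjusted P = 0.14). With liver control replicate 1 left out these were -1.10 and -0.56, and within the shared slide the POD8 value was -0.34. Its other probe, of another transcript, gave -0.17 for heart, -0.39 for liver POD5 and -0.25 for liver POD8 allografts, overlapped the controls throughout and was not called.

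Cxcr4 was 3.78, 4.87 and 4.46 in liver controls, with 1 of 3 arrays well above background. It was 6.87, 6.43 and 8.15 at POD5 and 6.39, 7.10 and 6.51 at POD8, all above every control. The POD8 difference was 2.30 ± 0.35 (4.92-fold, adjusted P = 0.032), and without liver control replicate 1 it was 2.001 (adjusted P = 0.034). Within the shared slide it was 2.42 (2 against 2, adjusted P = 0.15). The call was lost without liver control replicate 3 and without any 1 of the POD8 allografts (adjusted P = 0.059 to 0.13). The POD5 difference of 2.78 (6.88-fold) was not called with that array (adjusted P = 0.063) or without it (2.49, adjusted P = 0.12). By its dimmer probe, not well above background in any liver control, Cxcr4 was higher at least 2.58-fold in the POD5 allografts and at least 2.03-fold in the POD8 allografts, with adjusted P-values of 0.074 and 0.080. These bounds set the allograft mean against the higher of the array's detection floor and the probe's own signal in controls. In the heart Cxcr4 was 7.34, 7.18 and 8.01 in controls and 8.44, 8.24 and 8.04 in allografts. The 2 probes disagreed in call there: the brighter gave 0.73 ± 0.25 (adjusted P = 0.084) and the dimmer 1.32 (2.49-fold, adjusted P = 0.013).

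Cxcl16, a membrane-bound ligand made by macrophages, dendritic cells and endothelium, was higher in heart allografts. It was 11.42, 11.04 and 11.46 in heart controls and 12.84, 13.43 and 13.002 in heart allografts. The difference was 1.78 ± 0.21 (3.44-fold, adjusted P = 0.0036), and its other probe gave 1.32 (adjusted P = 0.0011). In liver it was 7.71, 9.74 and 9.40 in controls, 10.86, 10.70 and 10.83 at POD5 and 11.08, 11.21 and 10.72 at POD8. All liver allografts lay above the controls, but the low control replicate 1 widened the spread, and neither difference was called by this probe (1.85, adjusted P = 0.15, and 2.05, adjusted P = 0.12). Without that array they were 1.23 (adjusted P = 0.048) and 1.43 (adjusted P = 0.037), and within the shared slide the POD8 difference was 2.42 (adjusted P = 0.24). The other probe gave 1.104 at POD5 (adjusted P = 0.059) and was called at POD8 (1.64, 3.11-fold, adjusted P = 0.021), with 1.85 within the shared slide.

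Cxcr6, the receptor of CXCL16, had the largest liver difference of the 10 genes. It was 5.93, 7.16 and 6.51 in liver controls, all well above background, 10.04, 10.42 and 10.58 at POD5 and 10.30, 10.52 and 10.40 at POD8. Every liver allograft lay far above every control, by 3.81 ± 0.35 at POD5 (14.0-fold, adjusted P = 0.014) and 3.87 ± 0.33 at POD8 (14.6-fold, adjusted P = 0.0070). In bulk tissue, more cells of a type and more RNA per cell cannot be told apart. Without liver control replicate 1 the differences were 3.51 (adjusted P = 0.025) and 3.57 (adjusted P = 0.0088), and within the shared slide the POD8 difference was 3.86 (2 against 2, adjusted P = 0.10). In the heart Cxcr6 was already high in controls, at 10.78, 9.88 and 10.84, and was 11.61, 10.63 and 11.34 in allografts. Those groups overlapped, and the difference of 0.69 ± 0.38 was not called (adjusted P = 0.22). Leaving out any 1 liver POD5 allograft ended the POD5 call, with adjusted P-values of 0.059 to 0.080 and a difference over all alternatives of 3.05 to 4.12. The POD8 call was lost without POD8 allograft replicate 1 or replicate 2 (both adjusted P = 0.052).

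Cx3cl1, the membrane-bound ligand of CX3CR1 made by activated endothelium, had the largest heart difference. It was 10.03, 9.70 and 9.76 in heart controls and 13.15, 12.82 and 12.9999 in heart allografts. The arrays of each group lay close together, and the difference was 3.16 ± 0.14 (8.93-fold, adjusted P = 0.00054). In liver it was 7.59, 7.02 and 7.18 in controls, 7.91, 7.41 and 7.90 at POD5 and 7.11, 7.61 and 7.34 at POD8. These overlapped, at differences of 0.48 (adjusted P = 0.32) and 0.09, or 0.64 and 0.25 without liver control replicate 1. Within the shared slide the POD8 value was 0.06. Its receptor Cx3cr1 was not called with all arrays: it was 5.96 to 6.77 in heart controls and 5.21 to 6.30 in heart allografts. Cx3cr1 was not well above background in any liver control, and was 4.34 to 5.84 in liver allografts at POD5 and 5.37 to 6.30 at POD8, where it was called with liver control replicate 1 left out (adjusted P = 0.035). The sheddase Adam17, which can release both membrane-bound ligands, was higher in the heart (0.74 ± 0.20, adjusted P = 0.041), a call lost in 11 alternatives, and was 0.62 above controls in the liver at both times (adjusted P = 0.34 and 0.067). Adam10 had no matched probe and was not analysed here.

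The POD5 difference of heart and liver was compared gene by gene as an interaction over 12 arrays. Cx3cl1 rose more in the heart, by 2.68 ± 0.28 (adjusted P = 0.00092), where 6.76% of all genes were called in that direction. Cxcr6 rose more in the liver, at -3.12 ± 0.54 (adjusted P = 0.0073), where 7.07% were called in that direction. The Cxcr6 controls differed in level, at a mean of 10.502 in heart and 6.54 in liver, while the POD5 allografts of both organs lay within 10.04 to 11.61. The other 8 genes were not called. Cxcr4 was nearest, at -2.05 ± 0.62 (adjusted P = 0.055), and Ccl21a was at -2.80 ± 1.25 (adjusted P = 0.16). Cxcl16 (-0.07) and Cxcl12 (0.28) had the smallest differences between organs. Without liver control replicate 1, Cx3cl1 was at 2.52 (adjusted P = 0.0017) and Cxcr6 at -2.82 (adjusted P = 0.011). With slide as a random block the adjusted P-values were 0.0053 and 0.028. That block cannot tell slide from group, since no slide held POD5 allografts together with controls.

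**Figure D3:**
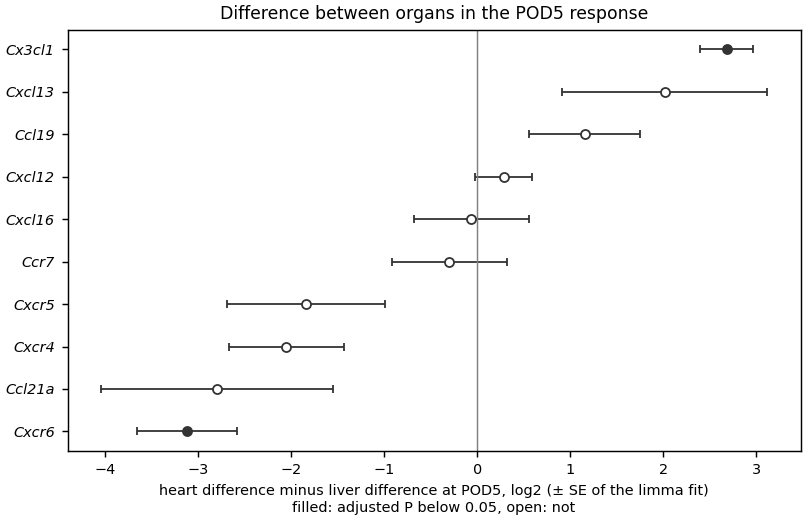
The allograft minus control difference in the heart at POD5 minus that in the liver at POD5 (x axis, log2 units, ± SE of the limma fit over 12 arrays) for each of the 10 genes (y axis). Filled points, Cx3cl1 at 2.68 and Cxcr6 at -3.12, had an adjusted P-value below 0.05, and the other 8 did not.

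Promoter windows of these genes, the pair whose response differed between organs, are shown for comparison. They are the 250 bases before the annotated starts in RefSeq (GRCm38.p6), at chr8:94771930-94772179 on the plus strand and chr9:123806227-123806476 on the plus strand. Capitals mark a TATAAA match.
Cx3cl1: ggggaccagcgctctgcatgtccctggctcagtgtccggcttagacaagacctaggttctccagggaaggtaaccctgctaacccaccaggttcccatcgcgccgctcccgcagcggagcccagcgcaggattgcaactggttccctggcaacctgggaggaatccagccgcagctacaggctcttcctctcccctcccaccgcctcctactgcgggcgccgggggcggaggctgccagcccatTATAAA
Cxcr6: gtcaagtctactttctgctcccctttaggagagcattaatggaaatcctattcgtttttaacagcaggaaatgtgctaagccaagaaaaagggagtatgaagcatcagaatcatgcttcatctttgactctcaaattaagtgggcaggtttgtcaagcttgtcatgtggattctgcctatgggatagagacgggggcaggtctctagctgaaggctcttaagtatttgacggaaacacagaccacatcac
The TATAAA of Cx3cl1 ends right at the annotated start, and the motif is in 12.4% of all windows on either strand. Neither window holds the interferon-gamma activated site TTCNNNGAA (in 7.02% of all windows), the NF-kB form GGGNNNTTCC (4.65%) or GAAANNGAAA. Of the 7 of 10 genes with a window in the table, none holds the first or the second of these.

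Liver allografts at POD8 and POD5 were compared directly, and limma called 0 of the 10 genes and 0% of all genes in either direction. At an unadjusted P-value below 0.05 there were 2 of the 10 genes and 5299 of 41165 probes. Of all probes, standardized fold change (SFC), which sets a difference of medians against the spread of probes of like signal, called 264 higher and 455 lower, and the methods' t-test called 1 and 2. Ccl19 was lower at POD8 than at POD5 on all arrays (-0.90, 11.2% of all genes lay all below), with the same order by its other probe (1.93-fold). By its brighter probe Cxcl12 was higher at POD8 on all arrays (0.54, 8.84% of all genes lay all above). By its other probe the groups overlapped (0.13, adjusted P = 0.73). The remaining 8 genes overlapped, with Cxcr6 at 0.06 and Ccr7 at 0.54.

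Ordered by mean level over the 5 groups, the genes showed different patterns. Ccl19, Cxcl16 and Cx3cl1 were highest in heart allografts, and there overlapped no other group. Ccl21a was highest in heart controls (13.04 ± 0.18, SD, n = 3) and next in heart allografts (11.62 ± 0.76), both above every liver array. By its brighter probe Cxcl12 was highest in liver controls (13.93 ± 0.26) and lowest in heart allografts (11.65 ± 0.32), and no 2 neighbours in its order overlapped. By its other probe all 5 groups overlapped, with means from 10.08 in liver POD5 allografts to 10.47 in liver controls. Ccr7, Cxcr4 and Cxcr6 were also highest in heart allografts and lowest in liver controls. For Cxcr4 the range of liver POD5 allografts (6.43 to 8.15) overlapped those of heart allografts (8.04 to 8.44), heart controls and liver POD8 allografts. The heart controls (7.18 to 8.01) and liver POD8 allografts (6.39 to 7.10) did not overlap. Cxcl13 was lowest in liver allografts, and its ranges in liver controls, heart allografts and heart controls overlapped. Cxcr5 was highest in liver allografts, and its ranges overlapped between each pair of neighbours in the order.

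Of 19 measured genes of 21 listed as other homeostatic chemokine system genes, 5 were higher and 2 lower in the heart. Of all genes, 15.5% were called higher there and 15.3% lower. In the liver 0 were higher and 1 lower at POD5 (2.51% and 0.808% of all genes), and 3 and 0 at POD8 (3.56% and 1.55%). Ccr4 and Ccr8 in the heart and Ccr8 in the liver at POD8 were counted as higher but were not well above background on any array there. The median differences of the 19 genes were 0.10, 0.04 and 0.39, beside 0.03, -0.08 and -0.11 over all genes. Ccl1, a ligand of CCR8 made by activated T cells, was not well above background in any heart control and averaged 7.69 in heart allografts, at least 35.6-fold higher (adjusted P = 0.0018). In liver it was well above background on the 3 POD8 arrays only, at least 2.29-fold above controls (adjusted P = 0.017). The scavenging receptor Ackr4, which removes CCL19, CCL21 and CCL25, averaged 7.45 in heart controls and 3.32 in heart allografts, with 1 of 3 allografts well above background (adjusted P = 0.0024). In liver it was at least 3.55-fold lower at POD5 than in controls, but was not called (adjusted P = 0.057). Ackr3, which scavenges CXCL12, averaged 11.92 in heart controls and 10.92 in heart allografts (adjusted P = 0.017), with calls lost in 6 alternatives, and was not called in the liver. Leaving out liver control replicate 1, 0 of these genes were called at POD5 and 3 higher and 0 lower at POD8, with Ccl1 still called at POD8 (adjusted P = 0.013). Without that array the shares of all genes called higher and lower were 2.14% and 0.491% at POD5, and 4.55% and 2.05% at POD8.

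Of 14 measured genes of 15 listed as proteases and carriers of these chemokines, 3 were higher and 3 lower in the heart. Of all genes, 15.5% were called higher there and 15.3% lower. In both liver comparisons Cd74 was the 1 called, beside 2.51% of all genes called higher at POD5 and 3.56% at POD8. The median differences of the list were -0.004, -0.009 and 0.18. Cd74, the invariant chain of MHC class II and a receptor of MIF, averaged 12.52 in heart controls and 15.52 in heart allografts (adjusted P = 0.0018). It averaged 11.08 in liver controls, 14.91 at POD5 (adjusted P = 0.0060) and 15.31 at POD8 (adjusted P = 0.0023), and both calls held without liver control replicate 1 (adjusted P = 0.020 and 0.0062). Leaving that array out, 1 gene of the list was also called lower at POD5, beside 0.491% of all genes. Pf4, a platelet chemokine, averaged 14.24 in heart controls and 10.69 in heart allografts (adjusted P = 0.0057), and fell more in the heart than in the liver (-3.36, adjusted P = 0.0099).

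Of 28 measured genes of 29 listed for lymphoid tissue organisation, 14 were higher and 0 lower in the heart, beside 15.5% and 15.3% of all genes. In the liver 7 were higher and 1 lower at POD5 (2.51% and 0.808% of all genes), and 10 and 0 at POD8 (3.56% and 1.55%). The medians of the list were 0.82, 0.95 and 0.99. Among those called higher in all 3 comparisons were Ltb, Tnf and Tnfsf14, ligands of the TNF family that shape lymphoid stroma, Icos and Pdcd1, receptors of activated and follicular helper T cells, and from the carrier list Cd74. Ltb was higher by 2.95 ± 0.29 in heart allografts, 3.23 ± 0.42 in liver POD5 allografts and 2.92 ± 0.22 in liver POD8 allografts (adjusted P = 0.0024, 0.029 and 0.0052). Pdcd1 was higher by 4.96, 6.25 and 6.14, with 1 of 3 liver controls well above background. Tnf was higher by 4.47, 2.55 and 3.22, Tnfsf14 by 1.49, 1.64 and 1.61, and Icos by 3.98, 2.77 and 2.57. The liver calls of these genes were lost under several alternatives, among them leaving out single arrays. At POD5 those of Ltb, Pdcd1, Tnfsf14 and Icos were each lost in 9 of 19 alternatives and that of Tnf in 10. At POD8, of 20 alternatives, Ltb lost its call in 3, Tnfsf14 in 6, Icos and Tnf in 7 and Pdcd1 in 8. Leaving out liver control replicate 1 left 4 of the 28 genes higher and 0 lower at POD5, beside 2.14% and 0.491% of all genes, and 8 higher and 0 lower at POD8, beside 4.55% and 2.05%. Icos and Tnf were among those called at both times. Without that array Ltb (adjusted P = 0.051), Tnfsf14 (0.053) and Pdcd1 (0.10) were not called at POD5, and Pdcd1 (0.069) was not called at POD8. Glycam1, a mucin-like glycoprotein of high endothelial venules, was called lower in the liver at POD5 but was not well above background on any array of either group, so no fold is given, and it was not called without liver control replicate 1 (adjusted P = 0.073).

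Marker lists of other cell types moved with these genes, and their part in the differences was not tested. T cell markers were called higher for 8 of 8 in heart allografts and for 6 of 8 in liver allografts of either day. Over all genes the shares called higher were 15.5% in the heart and 2.51% and 3.56% in the liver at POD5 and POD8. The log2 of the summed T cell marker signal was 8.90 to 9.43 in heart controls and 13.51 to 14.16 in heart allografts. In liver it was 9.001 to 9.24 in controls, 12.95 to 13.68 at POD5 and 12.76 to 13.10 at POD8. Cd8a was not well above background in any liver control. Beside the lower Ccl21a and Cxcl12 in the heart, endothelial markers were called lower for 6 of 6, lymphatic endothelial markers for 4 of 5 and mesenchymal stroma markers for 5 of 6. Of all genes, 15.3% were called lower there. The log2 of the summed lymphatic signal was 10.63 to 11.46 in heart controls and 8.26 to 8.93 in heart allografts. That of mesenchymal stroma was 18.16 to 18.74 and 16.81 to 17.11. Endothelial markers, whose cells make CX3CL1, had a log2 of summed signal of 14.03 to 14.32 in heart controls. It was 12.36 to 12.45 in heart allografts, where Cx3cl1 was higher. In liver, 0 of 6 endothelial and 0 of 6 mesenchymal markers were called at either time.

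**Figure D4:**
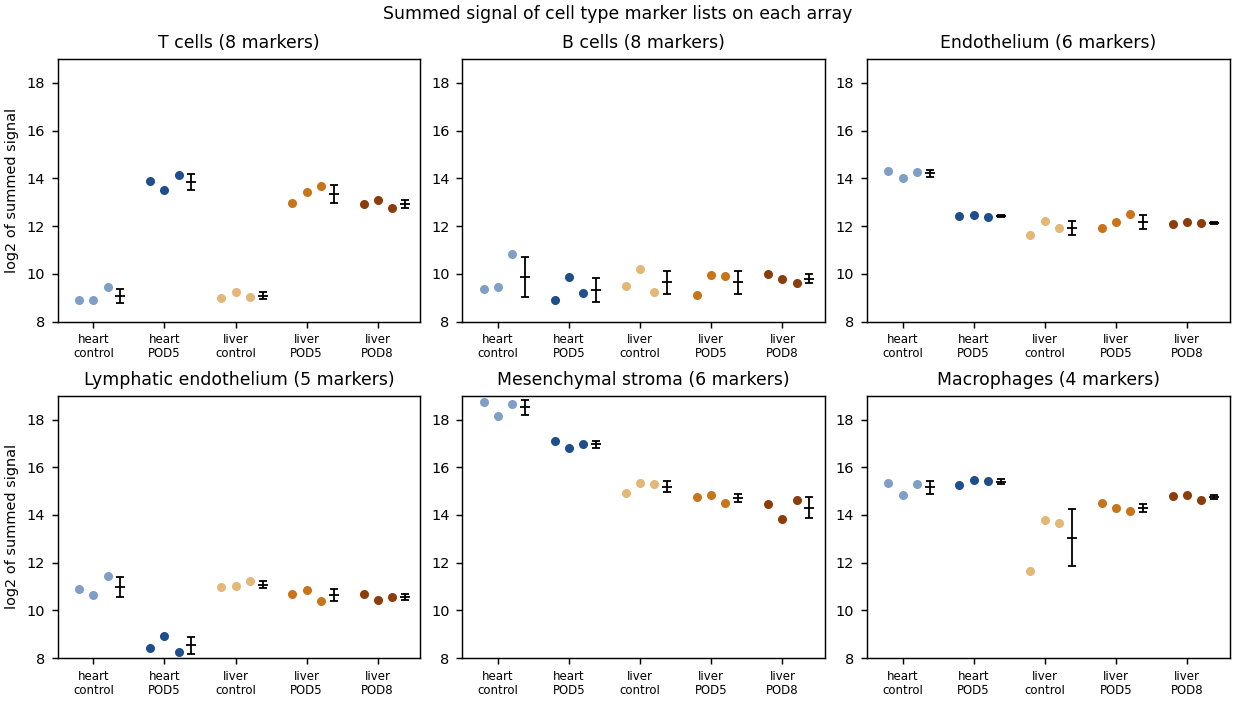
Log2 of the summed signal of 6 cell type marker lists (y axis) in the 5 groups (x axis), 1 point for each array, with the mean ± SD of 3 arrays beside them. T cell sums were higher in allografts of both organs, and endothelial, lymphatic endothelial and mesenchymal sums were lower in heart allografts than in heart controls.

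Further cell types were described the same way. Over all genes, 15.5% were called higher and 15.3% lower in the heart. In the liver these shares were 2.51% and 0.808% at POD5 and 3.56% and 1.55% at POD8. Mature dendritic cell markers were called higher for 2 of 5 in heart allografts, 0 of 5 in liver POD5 allografts and 3 of 5 in liver POD8 allografts. Natural killer and NKT cell markers were called higher for 3 of 3, 0 of 3 and 2 of 3. Macrophage markers were called higher for 1 of 4, 0 of 4 and 0 of 4, and Kupffer cell markers for 0 of 5, 0 of 5 and 1 of 5, with 3 of 5 lower in the heart. Biliary epithelial markers were lower for 3 of 4 in the heart and adipocyte markers for 1 of 4. Naive or recirculating T cell markers were higher for 3 of 5, 1 of 5 and 1 of 5. Of 4 sinusoidal endothelial markers, 1 was higher and 1 lower in the heart, and 0 were called in the liver. Cardiomyocyte markers were lower for 2 of 5 in the heart, and hepatocyte markers were called for 0 of 4 in the liver at either time. In liver, 1 of 5 lymphatic endothelial markers was lower at each time and 1 of 4 adipocyte markers was higher at each time. Leaving out liver control replicate 1, macrophage markers were called higher for 0 of 4 at POD5 and 3 of 4 at POD8, mature dendritic cell markers for 1 of 5 and 3 of 5, natural killer and NKT cell markers for 0 of 3 and 1 of 3, and Kupffer cell markers for 0 of 5 and 2 of 5. T cell markers were called higher for 6 of 8 and adipocyte markers for 0 of 4 at each time. Without that array 2.14% of all genes were called higher at POD5 and 4.55% at POD8.

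Over the 15 arrays, the profile of each gene was set against 14921 others by Pearson correlation, given as a description since groups and organs set it. The nearest to Cxcr6 were Stat4 (0.985), a transcription factor of activated T cells and natural killer cells, D430020J02Rik (0.980) and Fam78a (0.978). Cxcl16 was nearest to Fcgr1 (0.989), an IgG receptor of macrophages, Dram1 (0.987), a lysosomal autophagy protein, and Cklf (0.984), a chemokine-like factor. Ccr7 was nearest to Hsh2d (0.980), Plcb2 (0.974), a phospholipase of leukocytes, and Rinl (0.971). Cxcr4 was nearest to Pstpip1 (0.977), a cytoskeletal adaptor of leukocytes, Panx1 (0.974) and Plekha2 (0.969). These leading genes include several of leukocytes. Among the nearest to Cx3cl1 were Stoml1 (0.966) and Strada (0.965), and those to Ccl21a were Fundc2 (0.987), Cdkl3 (0.986) and Dipk1b (0.985). Those to Cxcl12 were Slc25a13 (0.965), Fbxo9 (0.965) and Acvr2b (0.965), and those to Ccl19 were Taf1d (0.955), Rps6ka4 (0.955) and Khdc1a (0.954). Cxcr5 and Cxcl13 had the lowest: Spaca9 (0.928), Pglyrp1 (0.920) and Dnajb13 (0.877) for Cxcr5, and Sergef (0.860), Dact1 (0.846) and Ldlrad4 (0.844) for Cxcl13.

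Some of the 10 genes overlap others in the RefSeq annotation. Cxcr6 overlaps Fyco1, which was 11.41, 11.98 and 11.21 in heart controls and 10.46, 8.85 and 9.94 in heart allografts (adjusted P = 0.037). Fyco1 was not called in the liver, where Cxcr6 rose. It was 9.44, 9.07 and 9.53 in liver controls, 8.53, 8.94 and 8.47 at POD5 and 9.01, 8.97 and 8.83 at POD8. Both Fyco1 and Cxcr6 were thus higher in heart controls than in liver controls. Cxcl16 overlaps Zmynd15, which was higher in heart allografts by 1.66 (adjusted P = 0.0017) and not called in the liver (0.36 and 0.80). Cxcr5 overlaps Bcl9l, which was not called in any comparison. Which strand each probe reads was not tested.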

How the data were processed

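RNA of 15 samples of grafts or control organs was labelled with Cy3 and hybridised to Agilent mouse arrays. The intensity of every spot was deposited by the authors as a linear processed signal, made with Agilent Feature Extraction 10.5.1.1 from a background-subtracted signal and not normalized between arrays, beside median intensities that were used in 1 alternative. From the deposited intensity, log2 was taken here, outlier spots were dropped (47 to 113 an array, 0 saturated), replicate spots of each probe were averaged, and quantile normalization was run over the 15 arrays, in R 4.3.3 with limma 3.58.1 (files were read with release 1.17.8 of data.table). A probe was taken as well above background on an array where at least 0.5 of its spots were so marked.

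Probes were named through their systematic name and RefSeq annotation (GRCm38.p6, used for names and promoter windows), which matched 26690 of 41174 probes and gave 18217 symbols. All 10 members matched. A gene was described by the probe with the highest mean over the 15 arrays.

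Each comparison was fitted with limma on its own 6 arrays (12 for the interaction), with Benjamini-Hochberg adjustment over all probes and a level of 0.05. The calls were tested on simulated data with known changes. Alternatives were other scaling, background correction, filters, tests, blocks and each array left out. The comparison within 1 slide was chosen after seeing the data. Replicate numbers do not pair the arrays. Named were the 10 members, their partners, genes of 3 fixed lists called in all 3 allograft comparisons or with the largest difference in a direction, and the 3 genes most correlated with each member; some of these genes are not reported here. The members and lists were chosen with earlier results of these data known. Plots used matplotlib 3.10.9 and Python 3.11.15. Probe and protein sequences were not used here.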

Additional observations from a re-analysis of the deposited data

Results flagged for a closer look

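Among the 10 genes, 2 had a POD5 difference between allografts and controls that itself differed between heart and liver in limma's interaction test. Over all genes, 6.76% were called with the higher difference in the heart and 7.07% with the higher difference in the liver. Cx3cl1 rose more in the heart, by 2.68 on the log2 scale. Cxcr6 differed the other way, at -3.12, with the larger rise in the liver. Organ and strain pair changed together in both, and their parts cannot be told apart. The controls of the 2 organs shared no slide, while liver POD5 replicate 3 shared one with the heart allografts. With slide as a random block the adjusted P-values were 0.0053 for Cx3cl1 and 0.028 for Cxcr6. No slide held POD5 allografts together with controls, so that block cannot tell slide from group.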

How the results depend on the processing

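Of 990 alternative values of the 10 genes, 867 kept their direction and side of the threshold, 57 lost a call, 46 gained one and 20 changed sign, none of these a called value. In what follows, brackets give the number of all probes called the same way. The 3 genes called higher in the heart (6394 of 41025 probes) became 1 by SFC (426) and 0 after Bonferroni adjustment (69). They were 3 to 4 with each array left out (3766 to 8510). The 2 called lower (6722) became 1 with 75th percentile scaling (5469) or 1 fit of 5 groups (6257). They became 0 by SFC (433), the methods' t-test (4975), Bonferroni adjustment (29) or the mean of all probes (4684 of 32171 genes). With each array left out they were 0 to 2 (3781 to 8751). In the liver at POD5 the 1 called higher became 4 with 75th percentile scaling or probes well above background. It became 3 with normexp or SFC, 5 with 1 fit of 5 groups and 2 with the mean of all probes. It became 0 by the methods' t-test or Bonferroni adjustment, and 0 to 2 with each array left out. The filter for signal did not require it in both groups. Ccr7, Cxcr4 and Cxcr5 passed it, though each was well above background on only 1 of 3 liver controls. The rise to 4 with that filter therefore does not show that liver controls had enough signal for these genes. The 0 called lower (320) became 1 with 75th percentile scaling (402), probes well above background (609) or 1 fit of 5 groups (2874). At POD8 the 3 called higher (1453 of 41157 probes) became 5 with 75th percentile scaling (2368) or 1 fit of 5 groups (2889). They became 1 by the methods' t-test (608) and 0 after Bonferroni adjustment (39) or within the shared slide (0). With each array left out they were 0 to 4 (289 to 1861). The 0 called lower (593) became 2 with 75th percentile scaling (10507), 1 by SFC (166) and 0 to 1 with each array left out (11 to 852). In the comparison of organs, Bonferroni adjustment left 0 in both directions (24 higher and 53 lower). The 1 called lower (2977 of 41006 probes) became 2 with 75th percentile scaling (2766) or probes well above background (3241 of 28582). It also became 2 with 1 fit of 5 groups (3886) or the mean of all probes (2114 of 32171 genes). With each array left out it was 1 to 2 (1581 to 3421). With replicate number as a block, 0 were called lower in the heart (4359) and 0 higher in either liver comparison (0 and 0). In the heart 4 were higher (4500), and the organ calls were at 1 and 1 (789 and 1085). Same-numbered arrays correlated at -0.12 to 0.04 in their deviations, so the numbers do not pair them. At the level in the methods, the methods' t-test called 5, 6, 6 and 1 of the 10 genes unadjusted in the heart, the liver at POD5, the liver at POD8 and POD8 against POD5. Its unadjusted share over all probes is not given here, so these counts have no background. After Benjamini-Hochberg adjustment it called 3, 0, 1 and 0. Over all probes it then called 5524 higher and 4975 lower of 41025 in the heart. In the liver it called 176 and 55 of 41155 at POD5, 608 and 208 of 41157 at POD8, and 1 and 2 of 41165 between these days. Beside 75th percentile scaling, the median difference of all probes was 0.47 in the heart, -0.38 and -0.46 in the liver at POD5 and POD8 and 0.64 between organs, against 0.02, -0.07, -0.08 and 0.08, and calls higher made up 74.2%, 75.3%, 18.4% and 82.3% of calls against 48.7%, 75.4%, 71.0% and 46.9%. Changes of sign by SFC were heart Cxcl13 (-0.28) and Cxcr6 at POD8 against POD5 (-0.0200). By normexp, the organ difference of Ccr7 was 0.38 and of Cxcl16 0.13, the latter 0.0747 with the mean of all probes, and Ackr3 in the liver at POD8 was 0.00213, with 0.0239 for slide as a random block and 0.29 within the shared slide. Heart Glycam1 was 0.0445 with 75th percentile scaling. With each array left out, heart Cxcl13 ran from -0.60 to 0.89, liver POD5 Pf4 from -0.46 to 0.0601, liver POD8 Ackr3 from -0.51 to 0.25, Ccl21a from -0.0623 to 1.94 and Cx3cl1 from -0.0381 to 0.25. At POD8 against POD5 the ranges were -0.55 to 0.18 for Ccl21a, -0.40 to 0.13 for Cxcl13, -0.84 to 0.0122 for Cxcr4, -0.40 to 0.20 for Cxcr5 and -0.0907 to 0.18 for Cxcr6, and between organs -0.82 to 0.0302 for Ccr7 and -0.46 to 0.55 for Cxcl16. The cause was not tested. Low signal over background in liver controls limits Ccr7, Cxcr4 and Cxcr5 there.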
